A study of Rattus norvegicus with 125 samples.

Results

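The sodium potassium pump genes and FXYD regulators described here are 8 genes, Atp1b1, Atp1b3, Fxyd1, Fxyd2, Fxyd4, Fxyd5, Fxyd6 and Atp12a, taken by symbol from 17144 gene symbols; they have 11 of 17974 transcript entries, with 2 for Fxyd2 and 3 for Fxyd5. Their levels were measured by RNA sequencing in single nephron segments and glomeruli dissected by hand from rat kidneys. For the segments, male Sprague-Dawley rats weighing 200 to 250 g were used, and the left kidney was perfused and digested with collagenase for 25 min (cortex), 50 min (outer medulla) or 90 min (inner medulla). The glomeruli (Glomerulus, n = 5) are labelled with the protocol text of the water-load experiment, and no treatment is named for them. The 14 segments were the proximal S1, S2 and S3 (n = 7 each), the descending thin limb of short-looped nephrons (SDL, n = 10) and of long-looped nephrons in outer medulla (LDLOM, n = 9) or inner medulla (LDLIM, n = 4), the ascending thin limb (tAL, n = 7), the thick ascending limb of medulla (mTAL, n = 7) and cortex (cTAL, n = 7), the convoluted distal tubule (DCT, n = 8), the connecting tubule (CNT, n = 6), and the collecting duct of cortex (CCD, n = 11), outer medulla (OMCD, n = 7) and inner medulla (IMCD, n = 8). In a separate experiment, CCDs of 5-week-old rats that all carried a subcutaneous minipump with DDAVP, a vasopressin analogue, at 5 ng/hr were compared after 4 days on 50 mL/day of water in gelled food (water load, n = 4) and on 25 mL/day (control, n = 4). Of the 125 samples, 7 whole-kidney samples are not analysed here.

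The sodium potassium pump sits in the basolateral membrane of tubule cells and moves sodium out of the cell and potassium in, which drives sodium reabsorption along the nephron. It is built of a catalytic alpha subunit and a beta subunit, the product of Atp1b1 or Atp1b3, which is needed for folding and delivery to the membrane. A small membrane protein of the FXYD family can join the complex and change its affinity for sodium and potassium: Fxyd2 encodes the gamma subunit, Fxyd4 the corticosteroid hormone-induced factor (CHIF), Fxyd1 phospholemman, best known from heart and skeletal muscle, Fxyd5 dysadherin, and Fxyd6 phosphohippolin, known from brain. Atp12a encodes the catalytic subunit of the nongastric proton potassium pump, a relative of the sodium pump that exchanges protons for potassium.

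Promoter sequence from RefSeq (build GRCr8, 250 bases before to 50 bases after the transcription start) was matched by symbol for 6 of the 8 genes, none for Atp1b1 or Fxyd2. The 3 shown belong to the genes with the clearest contrasts in where they were detected: a beta subunit high in thin limbs, an FXYD gene high in the collecting duct and one high in the thick limb and DCT. Capitals mark the GC box GGGCGG, searched on both strands.
Atp1b3, chr8:105821102-105821401, minus strand: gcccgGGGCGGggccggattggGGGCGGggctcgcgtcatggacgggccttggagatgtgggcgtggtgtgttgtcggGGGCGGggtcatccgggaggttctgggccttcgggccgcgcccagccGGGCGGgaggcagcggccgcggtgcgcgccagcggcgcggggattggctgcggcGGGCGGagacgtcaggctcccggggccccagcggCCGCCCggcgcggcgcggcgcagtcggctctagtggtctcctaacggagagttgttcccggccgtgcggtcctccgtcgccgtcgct
Fxyd4, chr4:152785996-152786295, minus strand: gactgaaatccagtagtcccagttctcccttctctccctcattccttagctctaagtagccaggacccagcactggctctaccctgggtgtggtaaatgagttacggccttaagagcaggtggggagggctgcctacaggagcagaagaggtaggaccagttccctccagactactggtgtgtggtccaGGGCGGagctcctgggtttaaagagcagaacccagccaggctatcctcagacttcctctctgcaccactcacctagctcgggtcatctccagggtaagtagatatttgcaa
Fxyd6, chr8:54575575-54575874, plus strand: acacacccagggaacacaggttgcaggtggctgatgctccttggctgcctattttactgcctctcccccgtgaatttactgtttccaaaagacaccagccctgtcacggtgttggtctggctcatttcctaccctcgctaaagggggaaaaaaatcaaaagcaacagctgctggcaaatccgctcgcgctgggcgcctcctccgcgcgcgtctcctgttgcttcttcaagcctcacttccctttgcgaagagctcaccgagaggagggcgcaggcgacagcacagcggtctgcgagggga
The Atp1b3 window held 6 GC boxes, the Fxyd4 window 1 and the Fxyd6 window 0. Of 33469 promoters of the same length, 33.1% held at least 1 GC box and 1.15% held 6 or more. The TATA box (letters TATAAA), found in 14.2% of promoters, was absent from these 3 windows. So were the steroid receptor letters AGAACA (20.7% of promoters), the cyclic AMP response letters TGACGTCA (1.83%) and the AP-1 letters TGANTCA (7.33%), all searched on both strands.

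The values are RPKM, read numbers divided by transcript length and library size, so levels can be set beside each other between genes, within limits. Between the segment values made with and without polyadenylation-site data, Atp1b3 differed by 3.19 to 3.68 times and Atp1b1 by 1.15 to 1.20 times. Those made with these data are used unless stated. Changes below are differences in mean log2(RPKM + 1) with their SE, tested with limma over all genes; a gene was called when its Benjamini-Hochberg adjusted p was under 0.05 and its change was at least 1 in size. Low values are understated by the added 1. Tubule libraries had between 1438 and 8574 genes at 1 RPKM or more, and their relative depth, where it could be estimated (81 of them), spanned 11.1-fold, so a listed 0 in a shallow library is not evidence of absence. Whether a segment's libraries stem from separate animals is not in the labels; the p-values reflect how far these libraries spread, and that spread may be technical. In such tissue samples fewer cells of a type and less RNA per cell cannot be told apart.

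Before the results, 2 tAL libraries need a remark. In tAL libraries 1 and 2 the summed endothelial markers reached 2677 and 2951 RPKM, with Emcn at 1971 and 2505 RPKM, while Cldn4, a thin limb marker, was at 1.20 and 3.91 RPKM, against 138 to 3009 RPKM in the other 5 tAL libraries. Their Atp1b1 levels, 8.91 and 8.03 RPKM, lay far under the 461 to 1644 RPKM of the other 5 tAL libraries. Fxyd2 was lower in them as well, at 250 and 493 RPKM against 1351 to 2593 RPKM, and Fxyd5 higher, at 290 and 146 RPKM against 0 to 10.7 RPKM. Aqp1, a water channel known from the descending limb, was 493, 4296 and 5273 RPKM in tAL libraries 4, 6 and 7 and at most 7.87 RPKM in the other 4. Summed proximal markers were at least 139 RPKM in every S1 to S3 library, and summed thick limb markers at least 517 RPKM in every mTAL and cTAL library. For the DCT the marker check rests on Slc12a3 alone, as the other DCT marker with values, Pvalb, was at 0 in every DCT library. Slc12a3 was 44.99 to 382 RPKM in the DCT, with a median of 302 RPKM. Summed thick limb markers were 182 to 1781 RPKM in the same libraries. Single libraries departed from the markers of their segment. LDLOM library 1 had the proximal Slc34a1 at 2329 RPKM and the intercalated cell gene Slc4a1 at 551 RPKM. OMCD library 7 and SDL library 1 had Slc34a1 at 286 RPKM each, and SDL library 9 had Aqp1 at 12.5 RPKM, against 130 to 5716 RPKM in the other 9. S3 library 7 had Aqp1 at 3606 RPKM, against 51.8 to 347 RPKM in the rest of S3, and the lowest Slc34a1 of S3, at 64.1 RPKM. tAL libraries 1 and 2 were kept in the fits, and each result that turns on them is given without them too, an alternative chosen after seeing the data. The part of these marker values in the results was otherwise not tested.

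All 8 genes differed among the 14 segments (limma F test, adjusted p under 0.05), as did 41.5% of all genes tested. The least secure was Fxyd1, with an adjusted p of 0.0449, which was lost without a filter on low values, under quantile normalization and without LDLIM library 1. Over the 91 pairs of segments, where 6.62% of all gene and pair combinations were called, Fxyd4 was called in 42 pairs, Fxyd6 in 31, Fxyd2 in 21, Atp1b1 in 17, Atp1b3 in 15, Atp12a in 11, Fxyd1 in 4 and Fxyd5 in 3. Between neighbours in each gene's own order of levels, none of the 13 pairs was called for any gene except Fxyd4, which had 1.

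Atp1b1, the main beta subunit of the tubule, was abundant in every segment and highest in the cTAL. Its level in the cTAL libraries ran between 641 and 4664 RPKM, with a median of 2540 RPKM, and in the DCT between 616 and 5157 RPKM, with a median of 1874 RPKM. The mean ± SD was 2900 ± 1612 RPKM in the cTAL (n = 7) and 2163 ± 1526 RPKM in the DCT (n = 8), followed by 1678 ± 1035 RPKM in the CNT (n = 6), 1640 ± 1078 RPKM in the OMCD (n = 7) and 1482 ± 555 RPKM in the CCD (n = 11). The order on the log2 scale began cTAL, DCT, CNT, CCD and LDLIM and ended S3, S1, tAL and S2. No difference between neighbours in it was called. The place of the tAL near the end rests on its libraries 1 and 2: the other 5 averaged 1060 RPKM, which would put the tAL at number 8 of the 14. Thin limbs held intermediate to high levels, at 1453 ± 559 RPKM in the LDLIM (n = 4), 1259 ± 596 RPKM in the LDLOM (n = 9) and 995 ± 717 RPKM in the SDL (n = 10).

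The IMCD was lower than these, at 650 ± 292 RPKM (n = 8), and the proximal tubule lower still by mean, at 459 ± 314, 385 ± 324 and 639 ± 650 RPKM in S1, S2 and S3 (SD, n = 7 each). The S3 mean rests on its library 7, high in Aqp1, at 2082 RPKM, beside a median of 426 RPKM. Against the other segments the proximal tubule was lower by a log2 change of -1.67 ± 0.33 (SE; limma adjusted p = 2.47e-05). In this comparison 3 of the 8 genes were called, as were 22.3% of all genes. The thick limb and DCT were higher by 1.09 ± 0.32 (adjusted p = 0.0159), in a comparison that called 4 of the 8 genes and 7.9% of all genes. That change fell to 0.91 without tAL libraries 1 and 2 (adjusted p = 0.0145), which is under the limit on size and ends the call. The mTAL was not among the highest: its 7 libraries held 381 to 1124 RPKM, and the cTAL minus mTAL change was called only where both segments were fitted alone (1.77, adjusted p = 0.0368).

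**Figure D1:**
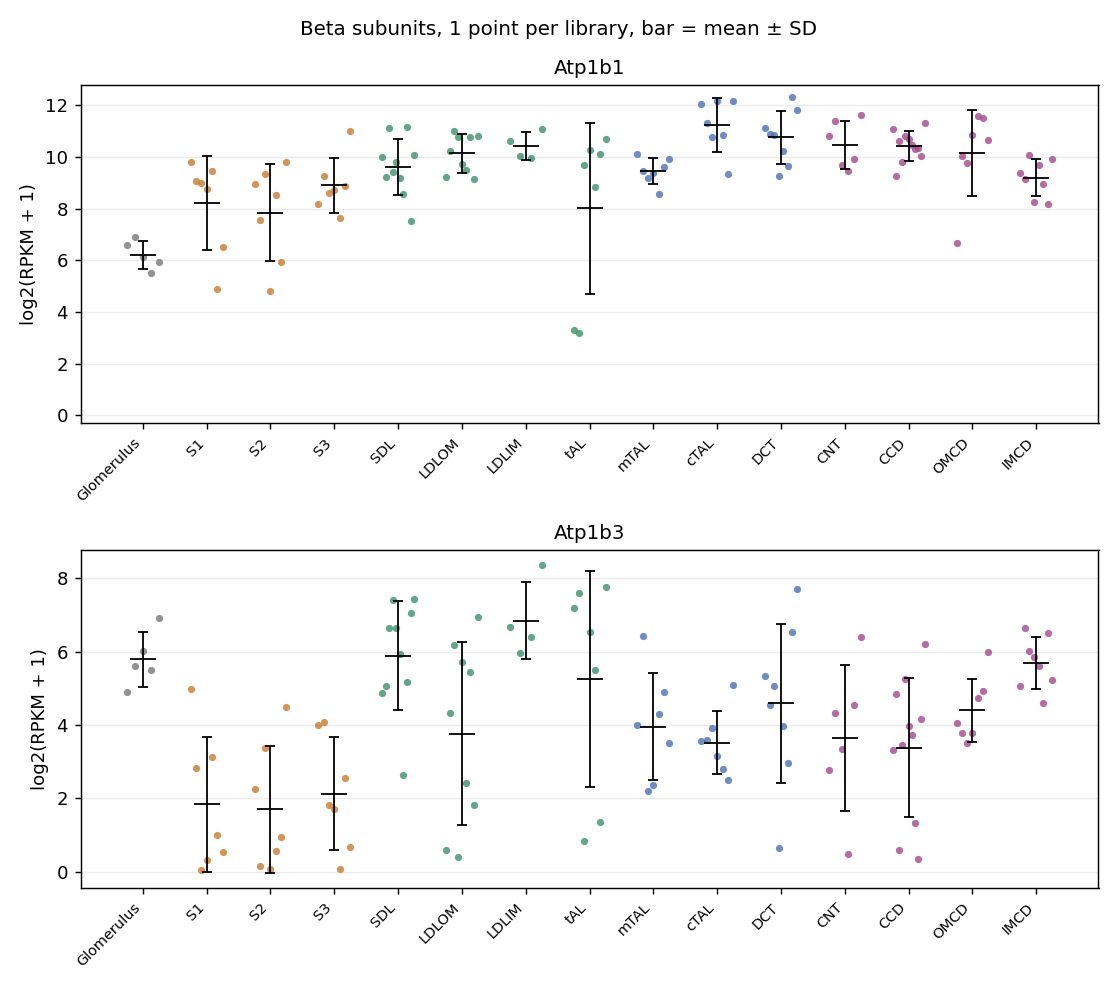
Levels of Atp1b1 and Atp1b3, as log2(RPKM + 1), in glomeruli and the 14 segments, with 1 point per library and bars for the mean ± SD of the group. The 2 tAL points far below the rest for Atp1b1 are libraries 1 and 2, at 8.91 and 8.03 RPKM, and the lone low OMCD point is library 1, at 101 RPKM.

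Atp1b3, the alternative beta subunit, was below Atp1b1 in every library except tAL libraries 1 and 2 and glomerulus 5, in the values made with polyadenylation-site data. In those made without, Atp1b3 was 3.19 to 3.68 times higher and Atp1b1 1.15 to 1.20 times. The order of the genes in SDL library 9 (131 and 183 RPKM) therefore does not hold there. By mean on the log2 scale it was highest in the LDLIM and SDL, followed by the IMCD and tAL. In the LDLIM its 4 libraries held 61.4 to 327 RPKM (mean 143 ± 124), in the SDL 10 libraries held 5.25 to 171 RPKM with a median of 79.0 RPKM, and in the tAL 7 libraries held 0.794 to 214 RPKM. The proximal tubule was lowest, at means of 6.56, 5.20 and 5.91 RPKM in S1, S2 and S3. Against the other segments thin limbs were higher by 1.95 ± 0.42 (limma adjusted p = 0.000143; 3 of the 8 genes and 16.2% of all genes called) and the proximal tubule lower by -2.74 ± 0.45 (adjusted p = 3.92e-07). The SDL exceeded S3, the proximal segment next to it, by 3.75 ± 0.91 (adjusted p = 0.00205), in a step where 2 of the 8 genes and 7.52% of all genes were called.

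The share of Atp1b3 in the sum of the beta subunit RPKM values was 10.9% in the SDL, 9.75% in the IMCD, 8.07% in the LDLIM and 0.490% in the cTAL (means over libraries). In the table made without polyadenylation-site data, where Atp1b3 was a median of 3.68 times higher, these shares were 23.6%, 23.3%, 20.9% and 1.48%. The order of the segments listed is the same in both. The first place of the SDL among them rests on its library 9, low in Aqp1, with Atp1b3 at 131 and Atp1b1 at 183 RPKM. The tAL is not among them: in its libraries 1 and 2 Atp1b3 (145 and 193 RPKM) exceeded Atp1b1 (8.91 and 8.03 RPKM). Within the medullary collecting duct the share differed: the log2 ratio of Atp1b3 to Atp1b1 was -3.51 ± 1.14 in the IMCD (SD, n = 8) and -5.76 ± 1.59 in the OMCD (SD, n = 7), a difference of 2.25 (exact two-sided permutation test, adjusted p = 0.00653). The libraries overlapped, at -4.71 to -1.68 in the IMCD and -7.06 to -2.61 in the OMCD. Atp1b1 is at 101 RPKM in OMCD library 1, against 875 to 3068 RPKM in the other 6; without it the difference was 2.77 (adjusted p = 0.00133).

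Fxyd2, the gamma subunit, was the most abundant FXYD gene in nearly all tubule libraries. Its highest levels were in the DCT, at 2395 to 23471 RPKM with a median of 9766 RPKM, and in the mTAL, at 1837 to 14999 RPKM with a median of 7165 RPKM. S1, S3 and the cTAL followed at means of 4882, 4379 and 3994 RPKM. The thick limb and DCT were higher than the other segments by 1.52 ± 0.27 (limma adjusted p = 7.6e-06). The proximal tubule was higher by 0.79 (adjusted p = 0.0209), which is under the size limit. The other Fxyd2 entry shares most of its values with the one used, at 0.941 to 1.05 of its RPKM in the segments, so the isoforms cannot be told apart here.

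Fxyd2 was lowest in thin limbs, which lay below the other segments by -1.35 ± 0.25 (limma adjusted p = 1.07e-05). The LDLIM held 997 ± 488 RPKM (n = 4), the SDL 1314 ± 1228 RPKM (n = 10) and the tAL 1432 ± 835 RPKM (n = 7; 1857 RPKM without libraries 1 and 2), but the LDLOM 3796 ± 3114 RPKM (n = 9), or 2878 ± 1550 RPKM without its highest library, number 1 at 11143 RPKM, in which the proximal marker Slc34a1 was high. Along the nephron Fxyd2 fell in the step to the SDL, at 42.5 to 3885 RPKM in the SDL against 2506 to 8688 RPKM in S3 (-2.48 ± 0.54, adjusted p = 0.000485). It rose in the step to the mTAL relative to the tAL (2.32 ± 0.59, adjusted p = 0.00705); without tAL libraries 1 and 2 the change was 1.65 and the adjusted p 0.115. In that step 6.34% of all genes were called. Over the 14 steps between successive segments the 8 genes had 7 calls in all, where 2.65% of gene and step combinations were called.

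**Figure D2:**
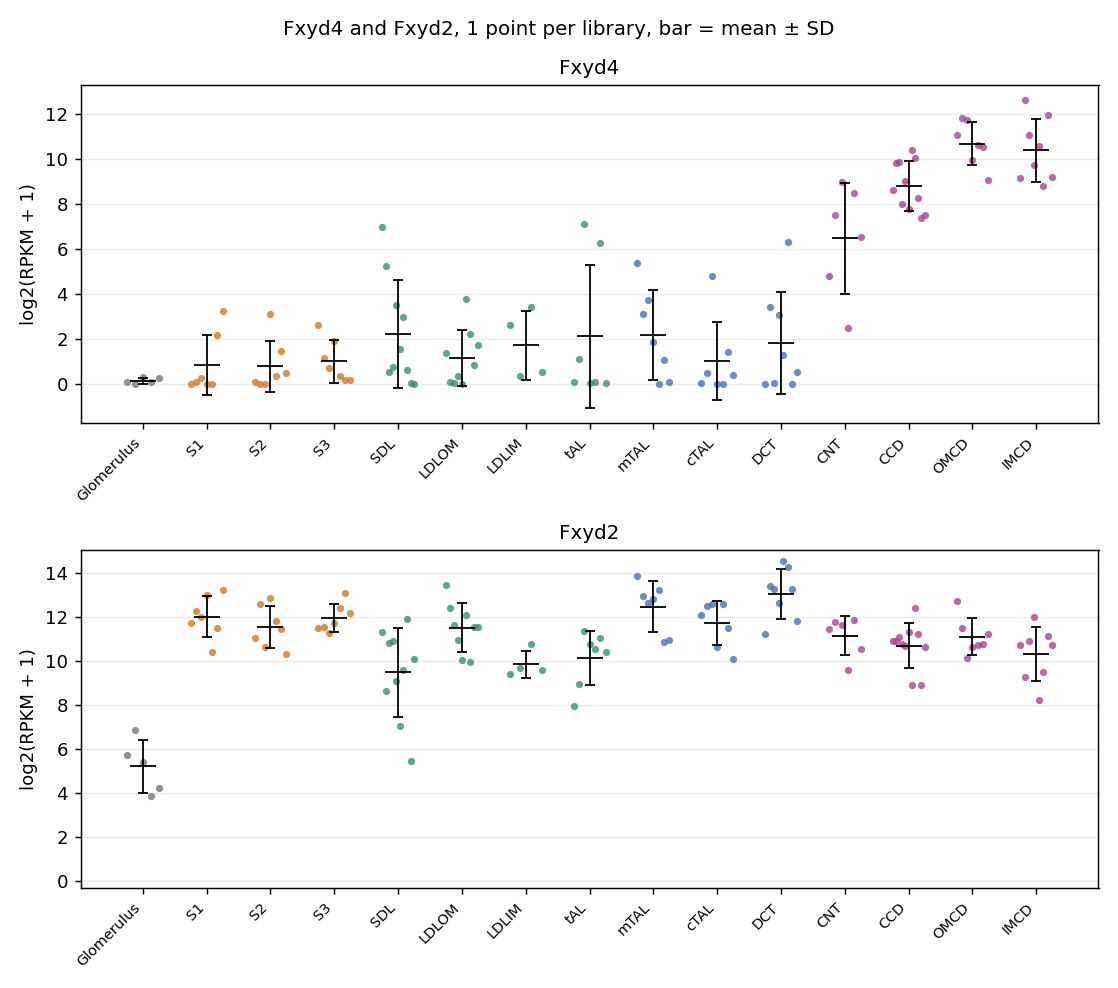
Levels of Fxyd4 and Fxyd2, as log2(RPKM + 1), in glomeruli and the 14 segments, with 1 point per library and bars for the mean ± SD of the group. Fxyd2 is spread along the tubule, at segment means of 997 to 10767 RPKM, whereas Fxyd4 has means of 197 to 2048 RPKM from the CNT to the IMCD and 1.47 to 31.2 RPKM elsewhere in the tubule.

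Fxyd4 was highest in the collecting duct and CNT. Its levels were 453 to 6273 RPKM in the IMCD (median 1183), 541 to 3644 RPKM in the OMCD (median 1604), 164 to 1361 RPKM in the CCD (median 396) and 4.62 to 512 RPKM in the CNT (median 138). Everywhere else in the tubule the segment means were 1.47 to 31.2 RPKM. The CNT and collecting duct exceeded the other segments by a log2 change of 7.59 ± 0.40 (limma adjusted p = 1.93e-33; 2 of the 8 genes and 12.5% of all genes called). Fxyd4 was called lower in the proximal tubule (-3.54 ± 0.46), in thin limbs (-2.59 ± 0.42) and in the thick limb and DCT (-2.52 ± 0.45) as well; as each region is set against all others, these 4 contrasts share libraries.

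In the order of levels OMCD, IMCD, CCD, CNT, no difference between neighbours was called. The largest, 2.32 between the CCD and CNT, had a limma adjusted p of 0.977. That p also depends on the other genes, and 8 of 11078 were called between these segments. The CNT stood above the SDL, the next in order, by 4.24 (limma adjusted p = 0.00148). Single libraries outside the collecting duct still held Fxyd4. SDL library 1 had 128 RPKM, tAL libraries 3 and 6 had 139 and 77.5 RPKM, and DCT library 6 had 78.8 RPKM together with 632 RPKM of Aqp2, the water channel of principal cells. The summed principal cell markers (Aqp2, Aqp3, Scnn1g and Avpr2) were 2140 to 21784 RPKM in the OMCD, 3520 to 17755 RPKM in the CCD and at most 638 RPKM in segments before the CNT; their part in the Fxyd4 result was not tested.

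Contrasts between segments that share a kidney zone gave 6 calls among the 8 genes, where 3.74% of gene and contrast combinations were called, and Fxyd4 had 3 of them. In the cortex the CCD exceeded the cTAL by 7.77 ± 0.90 (limma adjusted p = 1.58e-11; 3 of the 8 genes and 3.66% of all genes called). In the outer medulla the OMCD exceeded the mTAL by 8.50 ± 0.99 (adjusted p = 4.35e-11; 2 of the 8 and 2.36% of all genes), and in the inner medulla the IMCD exceeded the tAL by 8.26 ± 0.96 (adjusted p = 1.85e-11; 1 of the 8 and 5.2% of all genes). Along the nephron the CNT exceeded the DCT by 4.63 ± 1.00 (adjusted p = 0.00126; 2 of the 8 genes and 2.15% of all genes called). The ratio of Fxyd4 to Fxyd2 within a library, in which the scaling of the library nearly cancels, had a log2 mean of -0.40 ± 1.26 in the OMCD and -10.28 ± 1.58 in the mTAL (SD, n = 7 each; exact two-sided permutation test, adjusted p = 0.000874). It was -1.90 ± 1.39 in the CCD (n = 11) and -10.68 ± 1.68 in the cTAL (n = 7; exact permutation test, adjusted p = 0.000189). No library of either collecting duct segment overlapped with those of the thick limb.

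The FXYD make-up of libraries differed along the tubule. Fxyd2 made up at least 99.1% of the summed FXYD RPKM in S1 to S3, the LDLOM, LDLIM, mTAL, cTAL and DCT, 90.0% in the SDL and 87.5% in the tAL (means over libraries). Without tAL libraries 1 and 2 its tAL share was 97.8% ± 2.12 (SD, n = 5). Fxyd4 made up 5.81% in the CNT, 23.8% in the CCD, 43.9% in the OMCD and 49.7% in the IMCD. Single libraries varied widely: Fxyd4 was the highest FXYD gene in 4 of 8 IMCD, 2 of 7 OMCD and 1 of 11 CCD libraries, and its share in the IMCD ran between 17.3% and 91.2%.

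**Figure D3:**
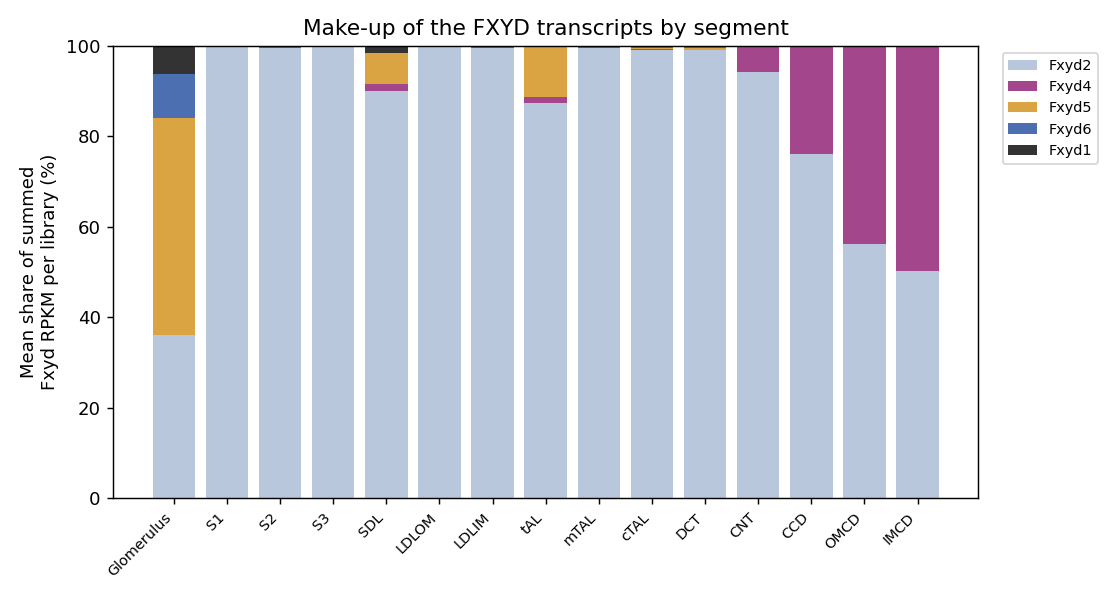
Mean share of each FXYD gene in the summed FXYD RPKM (percent) by group, with the glomerulus first, as stacked bars. Fxyd2 fills at least 99.1% of the bar in 8 segments, Fxyd4 reaches 49.7% in the IMCD, and Fxyd5 is the largest share in the glomerulus at 47.9%.

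The other 3 FXYD genes were low. Fxyd6 was detected mainly in the thick limb and DCT: 6 of 7 mTAL, 6 of 7 cTAL and 6 of 8 DCT libraries held 1 RPKM or more, at means of 9.74 ± 9.73, 8.67 ± 5.92 and 25.6 ± 40.8 RPKM. It was at 0 in all 7 OMCD and all 4 LDLIM libraries, and its CCD maximum was 0.481 RPKM. The thick limb and DCT exceeded the other segments by 2.72 ± 0.25 (limma adjusted p = 1.1e-16). Fxyd6 was lower in the CCD than in the cTAL (-2.74 ± 0.50, adjusted p = 2.33e-05), in the OMCD than in the mTAL (-2.75 ± 0.55, adjusted p = 0.000265) and in the CNT than in the DCT (-2.95 ± 0.55, adjusted p = 9.13e-05). In the proximal tubule and in the CNT and collecting duct Fxyd6 had changes of -0.96 (adjusted p = 0.00205) and -0.94 (adjusted p = 0.000741), under the size limit. With both segments fitted alone the OMCD against mTAL and CNT against DCT changes had adjusted p of 0.11 and 0.093.

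Fxyd5 was called lower in the CNT and collecting duct (-1.42 ± 0.41, limma adjusted p = 0.00827), where its means were 0.131 RPKM in the CNT, 5.60 RPKM in the CCD, 0.0117 RPKM in the OMCD and 1.01 RPKM in the IMCD. The CCD mean rests on library 8 at 53.4 RPKM, beside a median of 0.0169 RPKM. Means in the DCT and cTAL were 21.7 ± 26.2 and 17.4 ± 16.2 RPKM, at 1 RPKM or more in 7 of 8 and 5 of 7 libraries. The mTAL mean was 1.65 RPKM with a median of 0.0555 RPKM: 1 of its 7 libraries was at 1 RPKM or more and 3 were at 0. The thick limb and DCT contrast of 1.28 was not called (adjusted p = 0.0583), and it passed at 1.46 without tAL libraries 1 and 2 (adjusted p = 0.0128) and at 1.35 without LDLIM library 3 (adjusted p = 0.0447). Its high means in the SDL and tAL rest on few libraries, SDL library 7 at 538 RPKM and library 5 at 133 RPKM among 10, with a median of 3.88 RPKM. Of 6 leukocyte markers, 4 were called higher in the thick limb and DCT, where 7.9% of all genes were called. In the CNT and collecting duct, where 12.5% of all genes were called, 4 of the 6 were lower. The summed level of the leukocyte markers was 420 to 1184 RPKM in the mTAL, 328 to 1042 in the cTAL and 69.3 to 1457 in the DCT. It was 2.29 to 138 in the CNT, 0.473 to 281 in the CCD, 0.623 to 59.8 in the OMCD and 0.0795 to 43.8 in the IMCD. Ptprc was at 0 in all mTAL, OMCD and IMCD libraries. S1 and S2 had leukocyte sums of 58.6 to 1958 and 293 to 2495 RPKM, with mean Fxyd5 levels of 4.00 and 6.49 RPKM and Fxyd6 at most 0.239 RPKM. Of the 4 tubule libraries with the most Fxyd5, SDL library 7 and tAL library 1 had leukocyte sums of 1.47 and 0.550 RPKM. The others, tAL library 2 and SDL library 5, had 477 and 949 RPKM. The part of these markers in the Fxyd5 and Fxyd6 results was otherwise not tested.

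Fxyd1 was near 0 in most tubule segments, at 0 in every S3, LDLIM, CNT, CCD and OMCD library. The cTAL held 11.3, 5.39, 1.01 and 13.0 RPKM in 4 libraries and 0 in the other 3, and the CCD was lower (-1.59 ± 0.46, limma adjusted p = 0.028, lost under quantile normalization at -1.18, adjusted p = 0.113). SDL library 10 had 137 RPKM and SDL library 5 had 23.6 RPKM, with 0 in the other 8. These 2 SDL libraries had summed leukocyte markers of 1520 and 949 RPKM (SDL median 325), summed endothelial markers of 348 and 156 RPKM (SDL median 22.6) and summed stroma and muscle markers of 96.9 and 274 RPKM (SDL median 4.91). S1 and S2, where leukocyte sums reached 1958 and 2495 RPKM, had Fxyd1 at most at 2.07 and 1.12 RPKM. The part of these markers in the Fxyd1 values was otherwise not tested.

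Atp12a was low and was seen in the cTAL, CNT and CCD, at means of 2.63, 2.05 and 0.979 RPKM. The cTAL libraries held 1.32, 7.97, 5.20, 0, 0.0972, 0 and 3.84 RPKM, the CNT libraries 0, 4.04, 0.375, 0, 0 and 7.88 RPKM, and 4 of 11 CCD libraries were above 0, at 5.36, 3.30, 1.87 and 0.239 RPKM. It was 0 in all S1, S3, SDL, LDLOM, LDLIM, tAL and OMCD libraries. The cTAL was higher than the mTAL by 1.34 ± 0.32 (limma adjusted p = 0.0088; 1 of the 8 genes and 1.03% of all genes called) and the DCT lower than the cTAL by -1.34 ± 0.31 (adjusted p = 0.00525; 1 of the 8 and 0.849% of all genes). Neither call was kept under every alternative: fitting both segments alone gave adjusted p of 0.104 and 0.35, and quantile normalization gave changes of 0.56 and -0.73. The cTAL against mTAL call was also lost with the number of detected genes as covariate. Libraries of the cTAL had a median of 6702 genes at 1 RPKM or more, those of the mTAL 2870. The highest cTAL library, number 2, had Aqp2 at 4.08 RPKM, and library 3 had it at 343 RPKM.

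**Figure D4:**
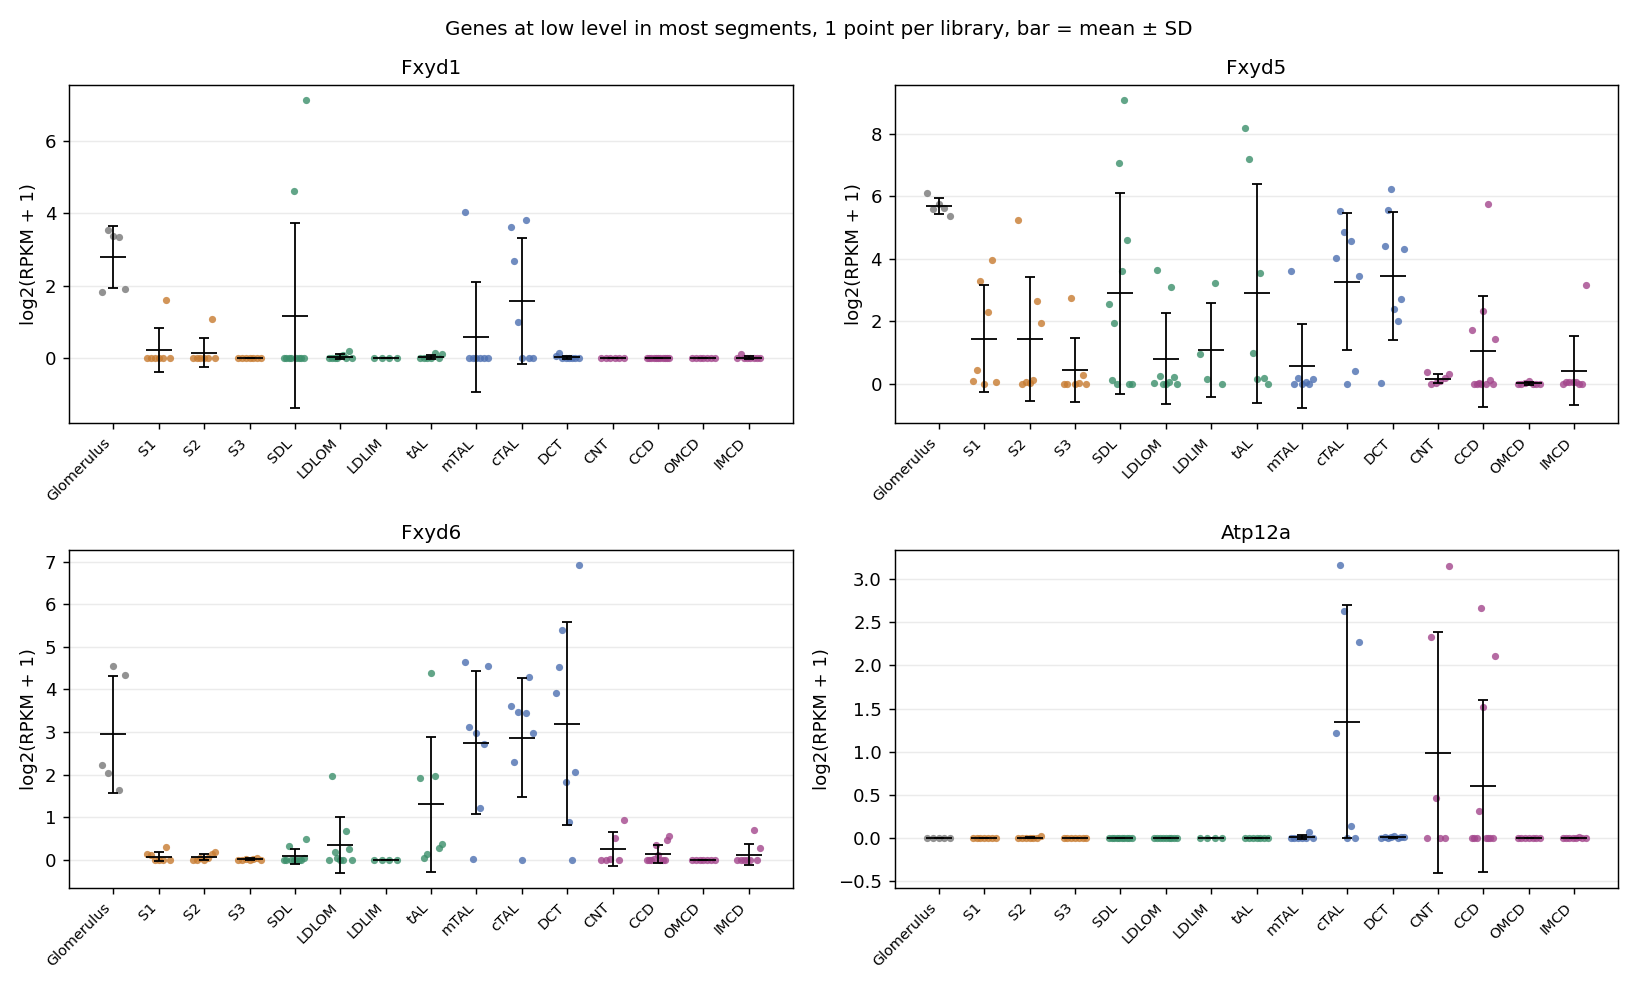
Levels of Fxyd1, Fxyd5, Fxyd6 and Atp12a, as log2(RPKM + 1), in glomeruli and the 14 segments, with 1 point per library and bars for the mean ± SD of the group. Fxyd6 is at 0 in all 7 OMCD libraries and its DCT libraries reach 120 RPKM, while Atp12a above 1 RPKM is seen in the cTAL, CNT and CCD.

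In the glomerulus the transcripts of the beta subunit and FXYD genes had a different make-up. Of the 8 genes, 6 were called against the tubule segments, where 38.9% of genes were called and the median change of all genes was 1.32. Atp1b1 was 44.9 to 120 RPKM in the 5 glomeruli (mean 78.0 ± 29.7), lower than in the tubule by -3.42 ± 0.61 (limma adjusted p = 1.86e-06). Fxyd2 was 52.4, 114, 41.0, 13.7 and 17.8 RPKM in the glomeruli and lower by -6.00 ± 0.52 (adjusted p = 3.5e-19), and Fxyd4 was at most 0.258 RPKM (-3.50 ± 0.82, adjusted p = 0.000313). Atp1b3, at 60.8 ± 35.5 RPKM, was not called (1.74, adjusted p = 0.0757) and made up 43.1% of the beta subunit sum in the glomeruli.

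Fxyd5, at 51.6 ± 10.3 RPKM with all 5 glomeruli between 40.6 and 68.0 RPKM, was higher than in the tubule by 4.27 ± 0.86 (limma adjusted p = 2.66e-05). It was the highest FXYD gene in 4 of 5 glomeruli and made up 47.9% of the FXYD sum, against 36.0% for Fxyd2, 9.79% for Fxyd6, 6.22% for Fxyd1 and 0.127% for Fxyd4. Fxyd1 (2.57, 10.5, 9.32, 9.06 and 2.73 RPKM) was higher by 2.52 ± 0.45 and Fxyd6 (3.67, 3.09, 22.3, 2.10 and 19.1 RPKM) by 2.15 ± 0.47. Quantile normalization ended both calls, at 0.49 (adjusted p = 0.488) and 0.18 (adjusted p = 0.834). Glomeruli hold podocytes, endothelium and mesangium, and 5 of 5 podocyte and 6 of 6 endothelial markers were higher in them; their part in the result was not tested.

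Water load, which together with DDAVP models vasopressin escape, moved none of the 8 genes past the threshold. Of the 8, 6 had values for a test and 0 were called (limma, adjusted p under 0.05), where 0.153% of 8492 genes were called. The 6 included 2 at an unadjusted p under 0.05. The share of all genes at that limit was not counted, so the 2 cannot be set against it. Fxyd4 was 308, 247, 110 and 74.9 RPKM under water load and 402, 400, 222 and 291 RPKM in the control. It was lower in 4 of 4 pairs with the same replicate number, though the groups overlap (-1.0 ± 0.41, limma adjusted p = 0.617). With the replicate number as a block its adjusted p was 0.194, and over all settings tried it ran between 0.194 and 0.807. Fxyd4 made up 10.7%, 8.12%, 3.65% and 2.98% of the FXYD sum under water load, against 17.6%, 27.0%, 21.9% and 8.84% in the control.

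Fxyd2 was 2579, 2799, 2906 and 2428 RPKM under water load and 1886, 1085, 784 and 2992 RPKM in the control (0.85 ± 0.38, adjusted p = 0.666). Atp1b1 overlapped between the groups, at 2928, 2524, 3090 and 2370 RPKM under water load and 3452, 4014, 1978 and 3256 RPKM in the control (-0.18 ± 0.31, adjusted p = 0.944). Both genes had their control values spread more widely than those under water load. Atp1b3 was 104, 131, 123 and 208 RPKM under water load and 203, 225, 245 and 117 RPKM in the control (-0.47 ± 0.31, adjusted p = 0.795). Atp12a was 5.32, 10.5, 6.31 and 3.07 RPKM under water load and 4.62, 0.134, 2.73 and 4.99 RPKM in the control (0.98 ± 0.57, adjusted p = 0.764). Fxyd5 was at most 11.9 RPKM in either group (0.69 ± 0.84, adjusted p = 0.898), and the groups overlap for all 3. Fxyd1 and Fxyd6 stayed under the filter in both groups. Summed principal cell markers, which include the vasopressin-responsive Aqp2, were 6009 to 11907 RPKM under water load and 12454 to 20237 RPKM in the control; their part in the Fxyd4 values was not tested. Levels of this experiment were normalized apart from those of the segments and are not set beside them.

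**Figure D5:**
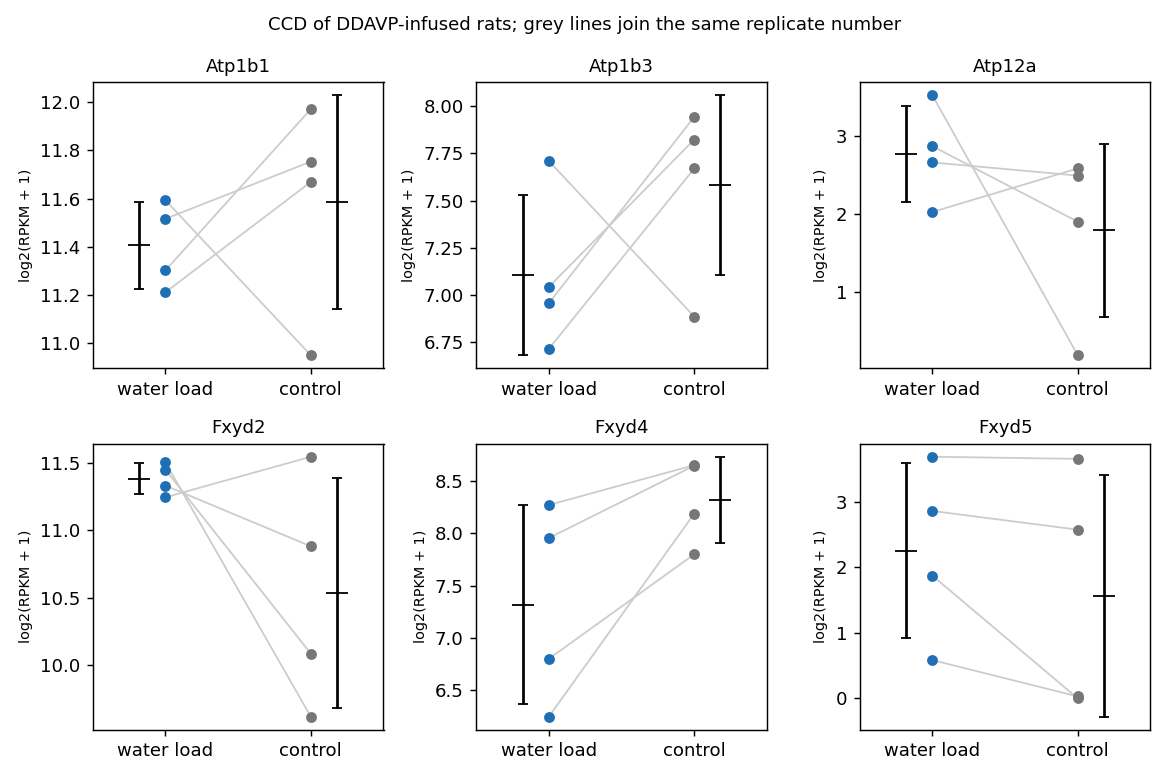
Levels of the 6 genes tested, as log2(RPKM + 1), in the CCD libraries of the water-load experiment, with 1 point per library, grey lines joining equal replicate numbers and bars for the mean ± SD of each group (n = 4). Each panel has its own axis range. Fxyd4 is lower under water load in each of the 4 pairs, at 74.9 to 308 RPKM against 222 to 402 RPKM.

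Genes of transport beside the pump, from lists chosen with earlier results known, are given by their calls in the same contrasts. In the CNT and collecting duct, where 12.5% of all genes were called, 5 of 8 tested aldosterone pathway genes were called higher and 0 lower, among them Hsd11b2 (4.21), which protects the receptor from glucocorticoids, and Sgk1 (3.48), a kinase that raises sodium channel numbers. Of 9 apical sodium entry genes 3 were higher and 3 lower there, the higher ones being the epithelial sodium channel subunits Scnn1a (1.97), Scnn1b (4.23) and Scnn1g (4.12). These levels did not hold through the collecting duct. The IMCD was called lower than the OMCD for the 3 subunits (-3.77, -4.27 and -4.48) and Hsd11b2 (-6.50), where 7.47% of all genes were called. Another list held 8 partner channels and exchangers, basolateral except for Kcnj1, the apical potassium channel ROMK. In the thick limb and DCT, where 7.9% of all genes were called, 5 of these 8 partner genes were higher and 0 lower, the higher ones including Kcnj1 (1.71) and the potassium channel Kcnj10 (2.82). There Fxyd2 was also called higher, as was Atp1b1 unless tAL libraries 1 and 2 were left out. In the CNT and collecting duct 6 of the partner genes, again with Kcnj1 (1.55), were higher and 1 lower. The median log2 change of the 8 pump and FXYD genes in the thick limb and DCT was 0.83, beside 1.70 for the partner genes, 0.11 for the apical genes, -0.39 for the aldosterone genes and -0.11 for all genes tested. In the CNT and collecting duct these medians were -0.06, 1.29, -0.87, 1.38 and 0.23. The 8 genes had a median of -0.68 in the proximal tubule and -0.21 in thin limbs, beside -0.36 and 0.02 for all genes. In thin limbs, where 16.2% of all genes were called, 6 of 9 apical genes were lower and 1 higher, the sodium proton exchanger Slc9a3 (1.04, limma adjusted p = 0.0495), while 4 of 8 partner genes were lower. In the proximal tubule, where 22.3% were called, 6 of 8 partner genes and 4 of 9 apical genes were lower, with 2 apical genes higher. Under water load 0 of the tested genes of these lists were called (6 apical, 8 partner and 7 aldosterone pathway genes).

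The genes whose mean levels over the 14 segments were most like each of the 8 were ranked by Pearson r, a description over 14 points that share libraries and depth. Fxyd4 was closest to Muc20 (0.979), Aqp3 (0.975) and Acrbp (0.973). Fxyd6 was closest to LOC100361444 (0.976), Ptger3 (0.951) and Ppp1r1a (0.946), Atp1b3 to Ptrf (0.938), Bcam (0.933) and Capn2 (0.909), and Fxyd5 to Csf1r (0.950), Gypc (0.911) and Fert2 (0.905). Fxyd2 was closest to RGD1306739 (0.896), Atp5j2 (0.863) and Ndufs8 (0.861), Fxyd1 to Lphn3 (0.969), Kank4 (0.939) and Pdlim3 (0.917), and Atp12a to Hpcal4 (0.959), Crabp1 (0.926) and Pou2af1 (0.926). Atp1b1 was closest to Nme7 (0.916), the protein-coding gene next to it in the GRCr8 annotation; whether strand was used in counting was not given in the sources used here, so reads of overlapping ends cannot be told apart. Among the 8 genes, Fxyd2 and Fxyd6, which also neighbour each other, correlated at 0.571 and Atp1b3 with Fxyd2 at -0.625 over the 14 segments.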

How the data were processed

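Deposited RPKM values, computed by the authors per RefSeq transcript, were analysed for 14 rat tubule segments, glomeruli and the CCDs of the water-load experiment. Per the submitters' processing notes, the genome build was rn5 and the tools HOMER, SAMtools, STAR 2.3.0-r192 and Trimmomatic 0.32, without role or order, and the labels' protocols give a single-cell library method with 50 nt paired reads. One segment table was made with polyadenylation-site data, here the main one, and another without. In the other, values of the glomeruli are shifted against the gene names, so it was used for tubules alone. Count data were not used here, so neither intervals nor counting floors are given.

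For each of 17144 symbols the entry with the highest mean was kept. Genes reaching 1 RPKM in at least 4 libraries were tested on log2(RPKM + 1) with limma 3.58.1 (trended, moderated, two-sided; R 4.3.3), adjusted by Benjamini-Hochberg over all genes of a comparison. The 14 segments shared a fit, joined by the glomeruli for their comparison; the 8 water-load libraries had their own. The size limit of 1 was not used for water load or the F test. Ratios within a library were compared by exact permutation in scipy 1.17.1, adjusted over 3 tests. The fits were tested on simulated data, and plots made with matplotlib 3.10.9. Some genes are not reported here. The 8 genes and all lists were chosen with earlier results of these data known. Named genes are the 8, list members that pass the test, markers and, for each of the 8, the 3 genes most like it. Residuals of same-numbered water-load libraries correlated above 0.1 in every pair (0.209 to 0.313), and no segment comparison met this. Same-numbered water-load libraries were therefore joined as pairs in the plot and in the replicate block alternative. The main water-load fit had no block, so its p-values are unpaired. Alternatives were a smaller pseudocount (0.1), unfiltered genes, quantile normalization, the other table, all transcript entries, the number of detected genes as covariate, exclusion of 14 libraries under 2500 genes, a fit of both segments alone, a replicate block, array weights, and single libraries left out.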

Additional observations from a re-analysis of the deposited data

Results flagged for a closer look

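Of 95 gene and group sets of 4 to 10 libraries, 9 had a library far from the rest. The rule would flag about 1 in 20 sets of normally distributed values. That rate does not hold where most libraries are at or near 0, as in most sets flagged, so 9 cannot be set against chance. Atp1b1 was 101 RPKM in OMCD library 1, against 875 to 3068 RPKM in the other 6. Fxyd4 was 27.4 RPKM in cTAL library 3, where the other 6 were at 0 to 1.69 RPKM and Aqp2 stood at 343 RPKM. In mTAL library 1 Fxyd1 was 15.2 RPKM, with the other 6 at 0, and Fxyd5 was 11.2 RPKM, with the other 6 at 0 to 0.148 RPKM. Fxyd1 was 2.07 RPKM in S1 library 6 and 1.12 RPKM in S2 library 6, with 0 in the others of each segment. Fxyd5 was 5.72 RPKM in S3 library 3, against 0 to 0.218 RPKM, and 7.88 RPKM in IMCD library 8, against 0 to 0.0537 RPKM. Fxyd6 was 2.93 RPKM in LDLOM library 2, against 0 to 0.606 RPKM.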

How the results depend on the processing

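Of 31 single calls for the 8 genes, 22 were kept under every alternative run and 9 were lost under at least 1, with 0 reversed. Lost were Atp1b1 in the thick limb and DCT and Fxyd2 between the mTAL and tAL (both without tAL libraries 1 and 2), Atp12a in both cTAL steps, Fxyd6 in the CNT against DCT and OMCD against mTAL contrasts, Fxyd1 in the CCD against cTAL contrast, and Fxyd1 and Fxyd6 in the glomerulus. The cause was not tested. The number of the 8 genes called in a comparison was not always kept. Between the mTAL and tAL the only call, Fxyd2, was lost without tAL libraries 1 and 2. In both cTAL steps the only call, Atp12a, was lost under quantile normalization. With both segments fitted alone, the CNT against DCT and OMCD against mTAL contrasts lost Fxyd6 and kept Fxyd4. Counts over all genes moved as well: 52 of 335, in 18 of 24 comparisons, moved by over 1.5 times. Fitting both segments alone accounted for 16 of the 52, with 154 genes called in place of 702 between the mTAL and tAL, 151 in place of 576 between the IMCD and tAL, 414 in place of 833 between the SDL and S3, 149 in place of 261 between the OMCD and mTAL, 136 in place of 238 between the CNT and DCT, 52 in place of 114 between the cTAL and mTAL, 32 in place of 94 between the DCT and cTAL and 6 in place of 300 between the LDLIM and LDLOM. For the glomerulus 4455 genes became 1656 under quantile normalization and 2000 with detected genes as covariate. Between the cTAL and mTAL these gave 59 and 56 genes, and the pseudocount of 0.1 gave 193; leaving out the libraries under 2500 genes gave 1283 between the SDL and S3. Under water load 13 genes became 0 without a filter or with the pseudocount of 0.1, 25 with array weights, 29 with the block and 0 to 7 with 1 library left out. With the replicate number as a block, the CCD against cTAL difference in the log2 ratio of Fxyd4 to Fxyd2 was 9.11, and the IMCD against OMCD difference in that of Atp1b3 to Atp1b1 was 2.42; under water load the block gave Fxyd4 an adjusted p of 0.194, its lowest over the settings, and the block changed no call. The alternatives without tAL libraries 1 and 2 and without OMCD replicate 1 were chosen after seeing the data. Without counts the precision of low levels (Fxyd1, Fxyd6 and Atp12a, near 1 RPKM) is unknown.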
